A study of Gallus gallus with 9 samples.

Results

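DF-1 cells in 2D, an immortalised line of chicken embryo fibroblasts with the genotype labelled WT, were described from 3 RNA-seq libraries, replicates 1, 2 and 3 of the group labelled 2D, out of 9 libraries in the series. The members were taken by that label and not by a measured value, although the group was chosen with earlier results of these data known. The series follows DF-1 from adherent cultivation to growth in suspension without carriers, and the other 6 libraries, labelled 3D_E and 3D_L, carry the same line and genotype and are not described here. The label 2D is taken here as the adherent state because the series' title starts there, although its design text counts 2D among the suspended cells. No treatment or time is given for 2D, and the labels do not say whether its libraries came from separate cultures, so the spread between them may be technical. Polyadenylated RNA was sequenced, and each value is an FPKM, the fragments of a gene scaled to the length of its transcript and to the mapped fragments of the library. FPKM accounts for gene length, so levels of different genes can be set side by side.

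Fibroblasts are the connective tissue cells that secrete fibrillar collagens, fibronectin and other matrix proteins, hold on to them through integrins and pull on them with actin and myosin. They have no single defining gene and are recognised by mesenchymal genes together with low levels of epithelial, endothelial, blood and neural genes. Fibroblasts also keep a record of their position in the embryo in the homeobox genes that they express. DF-1 was derived from chicken embryo fibroblasts without a viral or chemical transforming agent and is widely used to grow avian viruses.

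A gene was called present where all 3 libraries had at least 1 FPKM and absent where all 3 had under 0.1 FPKM, and anything else was in between. Of the 15294 genes in the table, 9735 (63.7%) were present, 3307 (21.6%) were absent and 2252 (14.7%) were in between. These shares are the background for every list below. Absent means a low listed value, and the lowest level these libraries could detect is unknown because their depth is not given. The 3 libraries were alike in their totals: summed FPKM was between 688587 and 708979, the genes at 1 FPKM or more numbered between 9826 and 9927, and the median gene was between 5.66 and 5.90 FPKM. Since 2D is a single group here, the values are given as a description with their spread (SD, n = 3), and no test was made.

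Ribosomal protein genes made up most of the highest places, below beta-actin. ACTB, cytoplasmic beta-actin, had 12108, 11579 and 11851 FPKM in replicates 1, 2 and 3 and was the highest gene in each library (mean 11846 ± 264). Ribosomal protein genes took 15 of the 20 highest places, led by RPL37A at 9127, 8757 and 8741 FPKM, RPL23 at 6620 ± 131 FPKM and RPS12 at 5300 ± 198 FPKM. The other places were held by EEF1A1, the translation elongation factor that brings aminoacyl-tRNA to the ribosome, GAPDH of glycolysis, and the calcium-binding S100 proteins S100A6 and S100A10. EEF1A1 was at 4965, 5583 and 5193 FPKM, and GAPDH at 4904, 5023 and 4933 FPKM. S100A6 was at 4789, 4478 and 4326 FPKM, and S100A10, the partner of annexin A2, at 3416, 3396 and 3053 FPKM. All 68 ribosomal protein genes in the table were present, with means between 281 and 8875 FPKM, and together they held 24.5% ± 0.287 of the summed FPKM. The 20 highest genes held 14.3% ± 0.0569. In all, 117 genes averaged 1000 FPKM or more and 1121 averaged 100 FPKM or more. Reads of near-identical genes, such as actins and ribosomal proteins with their copies, can be shared, so single values in these families are uncertain.

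With ribosomal protein genes left aside, the highest genes were ACTB, EEF1A1, GAPDH, S100A6 and S100A10, followed by genes of varied function. PPIA, cyclophilin A, averaged 2867 ± 169 FPKM, and PRDX1, a peroxide-removing peroxiredoxin, 2595 ± 118 FPKM. TMSB4X, thymosin beta-4, which holds actin monomers, averaged 2413 ± 93.8 FPKM, and MYL6, a non-muscle myosin light chain, 2381 ± 134 FPKM. HINTW averaged 2498 ± 246 FPKM, the myosin light chain MYL12A 2405 ± 42.5 FPKM and LGALS1, the lectin galectin-1, 2284 ± 62.1 FPKM. The glycolytic enzyme ENO1 averaged 2277 ± 102 FPKM and the ferritin heavy chain FTH1 1789 ± 68.0 FPKM. FABP7 and MIF, described with their lists, averaged 1857 ± 47.0 and 1768 ± 63.1 FPKM. RPL26L1 was not counted among the 68.

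**Figure D1:**
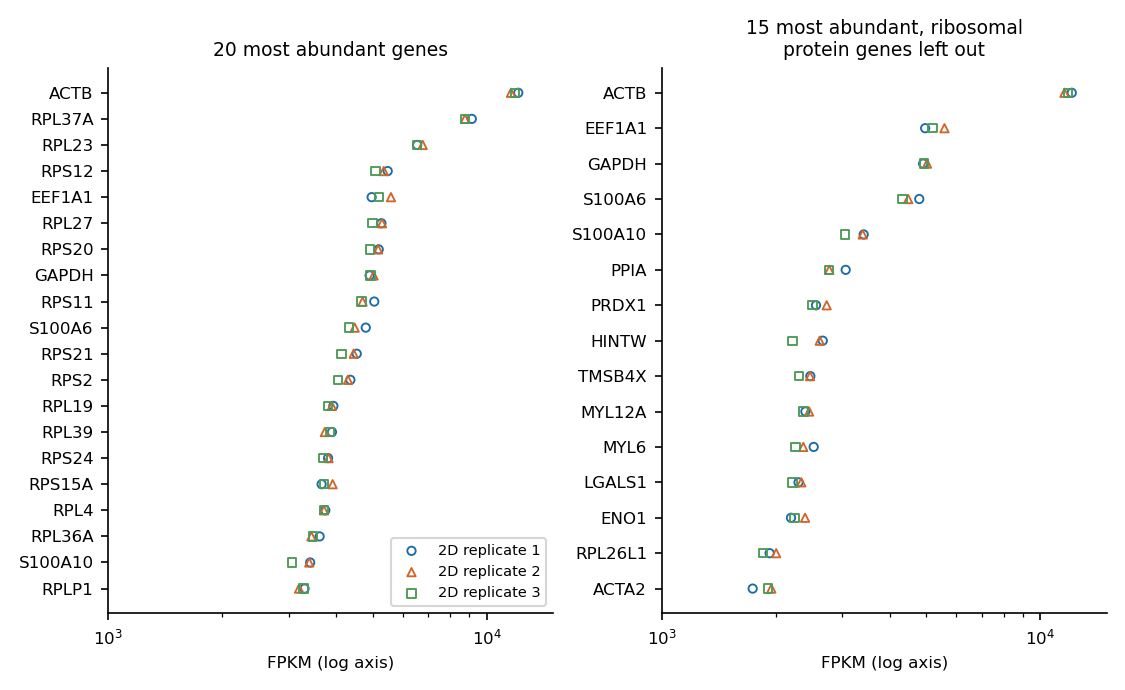
FPKM of the 20 most abundant genes (left) and of the 15 most abundant once ribosomal protein genes are left out (right), on a logarithmic x axis; each symbol is 1 of the 3 libraries of 2D and genes run down in falling order of their mean. ACTB stands highest in each library at a mean of 11846 FPKM, and 15 of the 20 genes on the left encode ribosomal proteins.

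The fibroblast and mesenchymal markers were mostly present: of 33 found in the table, 26 were present (78.8%, against 63.7% of all genes), 4 in between and 3 absent, and the median over the list was 61.1 FPKM. S100A6 and LGALS1 led the list, with LGALS1 at 2299, 2338 and 2216 FPKM. COL1A1, the alpha-1 chain of type I collagen, was at 955, 654 and 909 FPKM. THY1, a surface glycoprotein used to mark fibroblasts, was at 662, 528 and 598 FPKM. FN1, fibronectin, was at 520, 396 and 585 FPKM. The ranges of COL1A1 and THY1 overlap, as do those of THY1 and FN1, so the order of these neighbours is not settled by the libraries, whereas LGALS1 lies above all 3 in each library. The collagens COL1A2, at 326 ± 37.8 FPKM, and COL3A1, at 236 ± 21.4 FPKM, and the intermediate filament vimentin, VIM, at 320 ± 11.8 FPKM, were also well above the present level. Replicate 2 was the lowest library for 18 of the 26 present markers, against 38.4% of all present genes. This was not particular to the list. Replicate 2 was also lowest for 15 of 21 present receptor tyrosine kinases and 8 of 10 present smooth muscle and myofibroblast markers. Not all lists went this way, and replicate 1 was lowest for 8 of 11 present pathogen sensors.

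Some genes often used for fibroblasts were low or not detected. PDGFRA, a platelet-derived growth factor receptor that marks many mesenchymal cells, was absent at 0.04, 0.04 and 0.07 FPKM. LOX, the lysyl oxidase that crosslinks collagen, was absent at 0.06, 0 and 0 FPKM, and NT5E, the surface enzyme CD73, at 0.02 FPKM in each library. S100A4, also called fibroblast-specific protein in mammals, was in between at 1.05, 0.58 and 0.71 FPKM, and the matricellular protein periostin, POSTN, at 0.96, 0.65 and 0.86 FPKM. Of the markers of the labelled cell type, the collagens, fibronectin, vimentin and THY1 were thus present, but not every marker on the list was. The list was chosen with earlier results of these data known, so its share present is a description only. In bulk RNA, a few cells with much RNA of a gene and many cells with little cannot be told apart.

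Transcription factors of mesenchyme were a more mixed group. Of 28, 15 were present (53.6%, against 63.7% of all genes), 7 in between and 6 absent. TWIST2, a basic helix-loop-helix factor of dermal and other mesenchyme, was the highest at 472, 489 and 471 FPKM. Its relative TWIST1 was at 21.9 ± 1.65 FPKM and TWIST3 was listed at 0 in each library. PRRX1, the paired-related homeobox factor of limb mesenchyme, was at 135, 117 and 126 FPKM and PRRX2 at 42.8 ± 2.47 FPKM. OSR2, an odd-skipped zinc finger factor, averaged 96.1 ± 8.27 FPKM. The zinc finger repressors SNAI1 and SNAI2, both known for the passage from epithelium to mesenchyme, stood far apart, with SNAI1 at 91.7, 95.7 and 97.0 FPKM and SNAI2 at 0.63, 0.58 and 0.65 FPKM. FOXF1, MEOX1, EBF2 and SHOX were absent.

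Genes that mark position in the limb and trunk were present about as often as all genes. Of 25, 16 were present (64.0%, against 63.7% of all genes), 3 in between and 6 absent. EN1, engrailed 1, known in limb ectoderm and, in mouse, in a lineage of dermal fibroblasts, was at 56.1, 46.5 and 49.9 FPKM. IRX5 was at 38.3 ± 3.43 FPKM and MSX2 at 34.8 ± 1.98 FPKM. PITX1, the homeobox factor that specifies the hindlimb, was at 25.1, 25.0 and 24.3 FPKM. TBX4, the T-box factor that acts with PITX1 in the hindlimb, was listed at 0 in each library. HAND2, which in the embryo marks the posterior limb bud and the branchial arches, was at 19.9, 20.8 and 22.2 FPKM. TBX1, LMX1B, ISL1 and PAX1 were absent.

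HOX genes encode the homeodomain factors whose order along 4 clusters follows position along the body axis. Of the HOX genes, 28 were analysed. Of these, 14 were present, a smaller share than the 63.7% of all genes. A further 8 were in between and 6 absent (21.4%, against 21.6% of all genes). The states differed by cluster. HOXB4 was the highest at 56.5, 56.9 and 55.8 FPKM, followed by HOXA7 at 33.9, 35.9 and 34.1 FPKM, HOXB3 at 22.6, 20.5 and 21.5 FPKM and HOXC10 at 19.9, 21.4 and 19.9 FPKM. HOXB4 and HOXA7 lay apart from each other and from the genes below, whereas HOXB3 and HOXC10 overlapped. In the A cluster, HOXA3, HOXA4, HOXA5, HOXA6, HOXA9, HOXA10 and HOXA11 were also present, with means between 2.21 FPKM for HOXA4 and 5.99 FPKM for HOXA5. HOXA2 was in between at 0.353 ± 0.0379 FPKM.

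In the B cluster, HOXB2 was present at 4.83 ± 0.401 FPKM, HOXB5 was in between at 0.05, 0.15 and 0 FPKM, and HOXB1 and HOXB7 were absent, HOXB7 with 0 in each library. In the C cluster, HOXC9 was present at 11.9, 9.50 and 8.58 FPKM and HOXC6 at 6.42, 5.01 and 8.67 FPKM. The other C genes were in between: HOXC4 averaged 0.760 FPKM, HOXC5 0.267 FPKM, HOXC8 0.497 FPKM, HOXC11 0.123 FPKM, HOXC12 0.723 FPKM and HOXC13 0.143 FPKM. HOXC8 thus read far below HOXC9 and HOXC10 of the same cluster. All 4 HOXD genes found, HOXD1, HOXD3, HOXD4 and HOXD8, were absent, with no library above 0.06 FPKM.

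**Figure D2:**
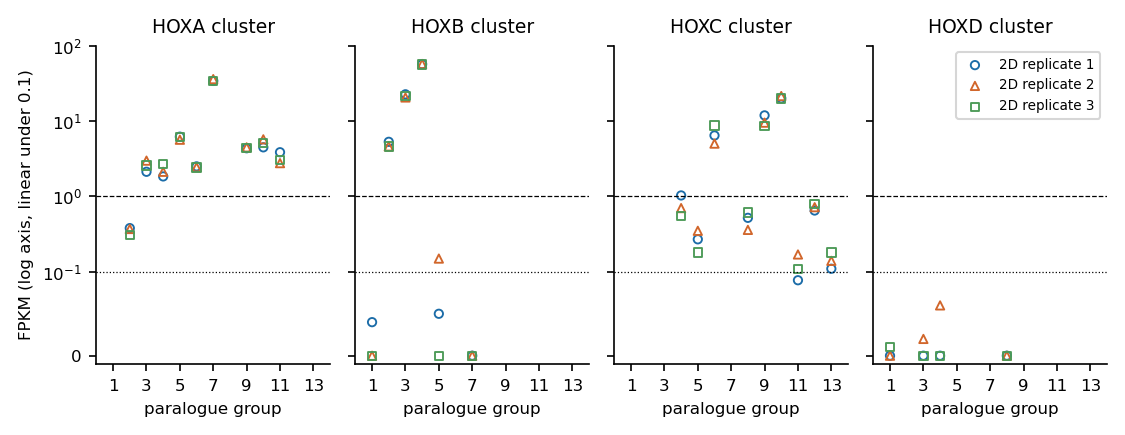
FPKM of the 28 HOX genes analysed, 1 panel for each cluster, with the paralogue group on the x axis and a y axis that is logarithmic above 0.1 FPKM and linear below; each symbol is 1 of the 3 libraries of 2D, and lines mark 1 FPKM (dashed) and 0.1 FPKM (dotted). HOXB4 is highest at a mean of 56.4 FPKM, and the 4 HOXD genes found lie under 0.1 FPKM in each library.

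Some genes of the contractile apparatus had high levels, although the share of the list present was near that of all genes. Of 15 smooth muscle and myofibroblast markers, 10 were present (66.7%, against 63.7% of all genes), 3 in between and 2 absent. ACTA2, alpha smooth muscle actin, was at 1739, 1948 and 1906 FPKM. The tropomyosins TPM1, at 1345 ± 46.2 FPKM, and TPM2, at 475 ± 23.3 FPKM, stabilise actin filaments. The regulatory myosin light chain MYL9 was at 328, 284 and 318 FPKM, and TAGLN, the actin-binding transgelin, at 201, 188 and 210 FPKM. MYOCD, myocardin, the coactivator of serum response factor in smooth muscle, was at 18.4, 16.3 and 20.5 FPKM. Desmin, DES, typical of differentiated smooth muscle, and the myosin light chain kinase MYLK were absent. The 3 in between were calponin, CNN1, at 1.03, 0.60 and 0.31 FPKM, the smooth muscle myosin heavy chain MYH11 at 0.570 ± 0.0964 FPKM and the smooth muscle actin ACTG2 at 0.363 ± 0.185 FPKM. Because ACTA2 shares most of its sequence with the other actins, its level is uncertain.

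Skeletal and cardiac muscle markers were mostly not detected. Of 13, 9 were absent (69.2%, against 21.6% of all genes), 2 in between and 2 present (15.4%, against 63.7%). MYOD1, the determination factor of skeletal muscle, was listed at 0 in each library, and PAX3, PAX7, ACTA1 and ACTC1 were absent. The actin entry ACTC2L, which was not on this list, averaged 1800 ± 117 FPKM. Reads shared between actins leave the levels of all these actin genes uncertain. The 2 present were MYOM1, a sarcomere M-band protein, at 4.43 ± 0.271 FPKM and the myosin heavy chain MYH1E at 2.48 ± 0.111 FPKM.

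Markers of the cell types that connective tissue can turn into were few. In cartilage, bone and tendon, 4 of 18 markers were present (22.2%, against 63.7% of all genes) and 8 absent (44.4%, against 21.6%). ALPL, the tissue-nonspecific alkaline phosphatase, was at 17.7, 14.5 and 16.7 FPKM. BGLAP, osteocalcin, was at 11.98, 7.60 and 6.14 FPKM, a wide spread with replicate 1 highest. RUNX2, the bone transcription factor, averaged 2.13 ± 0.219 FPKM and COMP, a cartilage matrix protein, 1.16 ± 0.0351 FPKM. The cartilage genes SOX5, ACAN, COL10A1, MATN3 and CNMD were absent. Of 9 genes listed for fat cells, 3 were present (33.3%, against 63.7% of all genes) and 4 absent (44.4%, against 21.6%). Those present were ADIPOR1 at 64.4 ± 1.98 FPKM, CEBPB at 40.5 ± 2.71 FPKM and PPARG, the main regulator of fat cells, at 1.42 ± 0.104 FPKM. CEBPA, FABP4, ADIPOQ and LPL were absent.

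Markers of other cell types, 141 genes in 10 lists, were present for 29 (20.6%, against 63.7% of all genes), in between for 34 and absent for 78 (55.3%, against 21.6%). In the pluripotency and germ cell list 11 of 13 were absent (84.6%, against 21.6% of all genes). Among them were NANOG, SALL4, LIN28A, PRDM14 and the germ cell helicase DDX4. KLF5, at 6.20 ± 0.492 FPKM, and KLF4, at 1.69 ± 0.392 FPKM, were the 2 present. In the epithelial list 13 of 20 were absent (65.0%, against 21.6%), and E-cadherin, CDH1, and EPCAM had no library above 0.02 FPKM. The keratins KRT5 and KRT8 were absent as well. The 3 epithelial genes present were the membrane protease ST14 at 14.6, 13.4 and 17.7 FPKM, KRT7 at 3.93 ± 0.305 FPKM and GRHL2, a grainyhead factor, at 1.74 ± 0.129 FPKM.

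Several lists held a few present genes beside more that were absent. Among 16 endothelial markers, 4 were present (25.0%, against 63.7% of all genes) and 7 absent (43.8%, against 21.6%). ERG, an ETS factor best known in endothelium, was at 116, 128 and 121 FPKM, and FLT1, a receptor for VEGF, at 56.6, 56.96 and 60.8 FPKM. VE-cadherin, CDH5, was at 6.72, 6.92 and 6.73 FPKM and LYVE1, the hyaluronan receptor of lymphatic vessels, at 7.22, 4.49 and 4.96 FPKM. KDR, the main VEGF receptor of endothelium, was listed at 0 in each library, and TEK, TIE1, VWF and ESAM were absent. PECAM1, the platelet and endothelial adhesion molecule CD31, averaged 0.200 ± 0.0755 FPKM and the tight junction protein CLDN5 0.857 ± 0.137 FPKM, both in between.

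Among 18 blood and immune markers, 4 were present (22.2%, against 63.7% of all genes). The 9 absent were a larger share than the 21.6% of all genes. THBD, thrombomodulin, was at 165, 130 and 155 FPKM, the interferon regulatory factor IRF8 at 39.6, 38.1 and 37.5 FPKM, CD3E at 7.45 ± 0.826 FPKM and MYB at 6.19 ± 0.803 FPKM. The pan-leukocyte phosphatase CD45, PTPRC, was in between at 0.15, 0.11 and 0.12 FPKM, and SPI1, CD79B and the globins HBA1, HBBA and HBE were absent.

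Among 18 neural and neural crest markers, 5 were present (27.8%, against 63.7% of all genes) and 10 absent (55.6%, against 21.6%). FABP7, a fatty acid-binding protein known in radial glia, was at 1881, 1887 and 1803 FPKM, the highest of all genes in these 10 lists. NES, the intermediate filament nestin, was at 64.8, 53.7 and 60.9 FPKM, and TFAP2B, MITF and MAP2 averaged 18.7, 7.17 and 5.17 FPKM. SOX2, SOX10, PAX6 and ELAVL4 were absent, SOX2 and SOX10 with 0 in each library. In the liver, gut and endoderm list 1 of 9 was present (11.1%, against 63.7% of all genes) and 4 absent (44.4%, against 21.6%). The 1 present was GATA6, a zinc finger factor of endoderm and mesoderm, at 20.4, 20.9 and 22.0 FPKM. In the kidney and mesothelium list 1 of 7 was present (14.3%, against 63.7%) and 3 absent (42.9%, against 21.6%). The 1 present was PAX2 at 3.00, 2.35 and 2.61 FPKM, and WT1 was in between at 0.157 ± 0.0764 FPKM. Whether a minority of other cells carried the present genes of these lists was not tested.

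**Figure D3:**
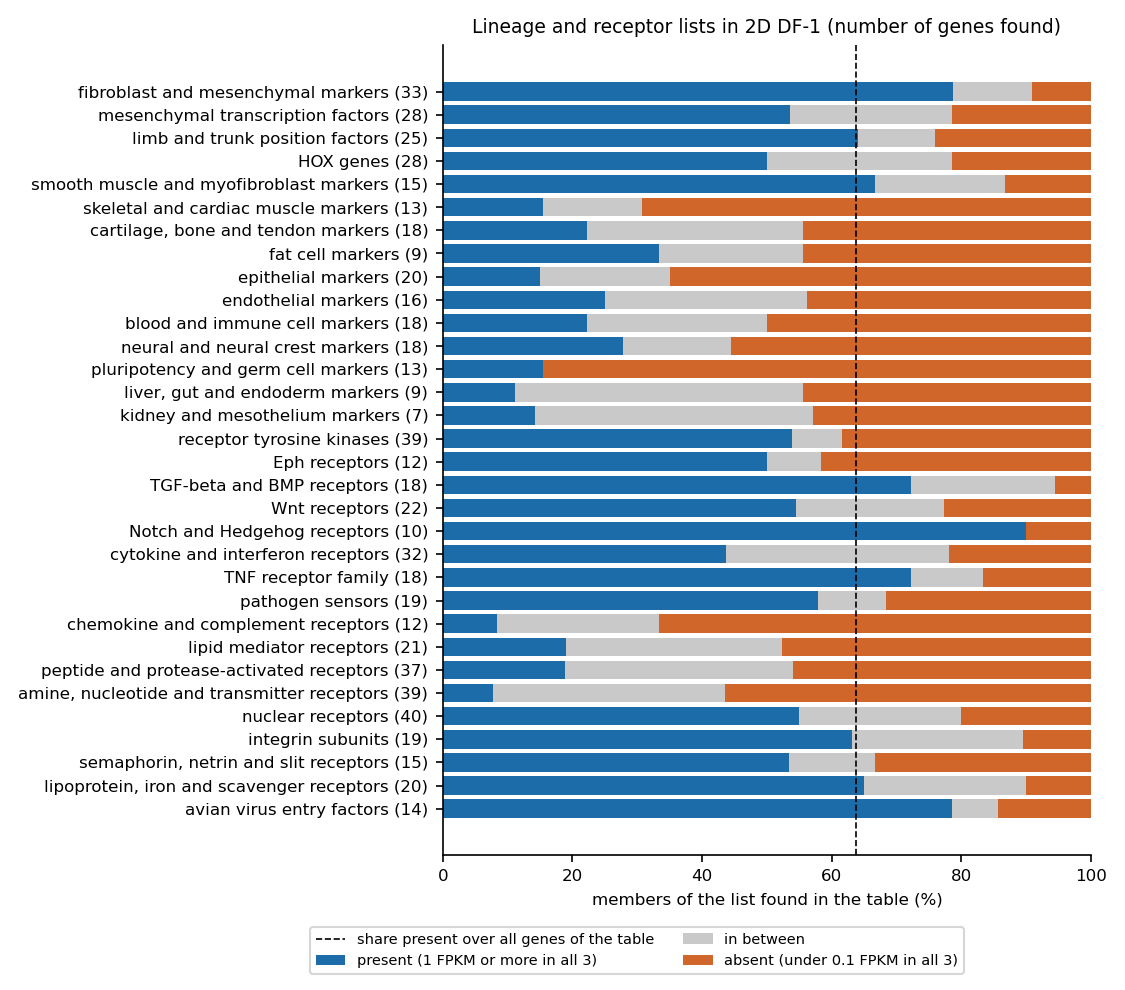
Share of the genes found that were present, in between or absent, as stacked bars in percent for each lineage and receptor list, with the number of genes found in brackets; the dashed line is the 63.7% present over all genes of the table. Fibroblast markers reach 78.8% present, and pluripotency and germ cell markers are 84.6% absent.

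Receptors and other proteins through which the line can sense its surroundings or take up cargo were examined in 17 lists of 385 genes. Of these 178 (46.2%, against 63.7% of all genes) were present, 88 in between and 119 (30.9%, against 21.6%) absent. Only 12 averaged 100 FPKM or more, 89 averaged 10 FPKM or more, and 47 were listed at 0 in all 3 libraries. The states differed widely between families, from 9 of 10 present for Notch and Hedgehog receptors to 3 of 39 for receptors of amines, nucleotides and transmitters.

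Outside the virus entry list, the highest levels belonged to single integrin subunits, ITGB1 and ITGA3. The median over the integrin list was 4.15 FPKM, below the 13.3 FPKM of the TNF receptor family. Integrins are pairs of alpha and beta subunits that bind matrix. Of 19 subunits, 12 (63.2%, against 63.7% of all genes) were present. ITGB1, the beta-1 subunit shared by most collagen, laminin and fibronectin receptors, was at 404, 403 and 413 FPKM. Of the alpha subunits, ITGA3 was at 369, 312 and 385 FPKM, ITGA6 at 170, 192 and 200 FPKM and ITGA11, a collagen-binding subunit, at 167, 148 and 179 FPKM. ITGAV, which serves RGD-binding integrins, was at 109, 150 and 159 FPKM, with replicate 1 lowest. ITGB1, ITGA3 and ITGA6 did not overlap in range, whereas ITGA11 overlapped with both ITGA6 and ITGAV. The platelet subunit ITGA2B and the hemidesmosome subunit ITGB4 were absent.

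Of 39 receptor tyrosine kinases, 21 were present (53.8%, against 63.7% of all genes), 3 in between and 15 absent. FGFR1, a fibroblast growth factor receptor, was at 132, 116 and 136 FPKM. PTK7, a pseudokinase of planar polarity, averaged 89.2 ± 10.4 FPKM, and DDR2, which is activated by fibrillar collagen, 69.8 ± 9.24 FPKM. RYK, a co-receptor for Wnt proteins, averaged 50.4 ± 2.10 FPKM. The receptors for platelet-derived growth factors were in opposite states, with PDGFRB at 27.4, 23.5 and 27.2 FPKM and PDGFRA absent as above. MET, the receptor for hepatocyte growth factor, was present at 21.8, 20.9 and 23.4 FPKM. EGFR, the epidermal growth factor receptor, lay at the limit, at 0.95, 0.84 and 1.02 FPKM. ERBB3, INSRR, KIT and FLT3 were absent. Among 12 Eph receptors, which bind ephrins on neighbouring cells, 6 were present, a smaller share than the 63.7% of all genes. Another 5 were absent (41.7%, against 21.6% of all genes). EPHA2 was the highest at 53.4, 45.9 and 54.4 FPKM, followed by EPHA4 at 14.1 ± 1.096 FPKM and EPHB3 at 13.1 FPKM.

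The families of morphogen receptors differed in the share present: 72.2% for TGF-beta and BMP, 54.5% for Wnt and 90.0% for Notch and Hedgehog, against 63.7% of all genes. In the TGF-beta and BMP family 13 of 18 were present and 1, BMPR1B, was absent, with 0 in each library. ACVR1, a type I receptor for BMPs and activins, was at 132, 132 and 130 FPKM, the type I receptor BMPR1A at 19.98, 20.6 and 21.0 FPKM, and the type II receptor ACVR2A at 26.1, 26.4 and 27.7 FPKM. BAMBI, a decoy receptor without a kinase domain, was at 31.7, 34.8 and 28.8 FPKM, and NEO1, neogenin, at 24.6 ± 2.76 FPKM. In the Wnt list 12 of 22 were present and 5 absent (22.7%, against 21.6% of all genes). The frizzled receptors FZD2, at 33.2, 26.2 and 30.6 FPKM, and FZD1, at 24.4, 23.8 and 25.5 FPKM, led it. LGR4, a receptor for R-spondins, was present at 11.5 ± 0.626 FPKM, whereas its relative LGR5, FZD4, RNF43, VANGL2 and CELSR2 were absent.

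In the Notch and Hedgehog list, SMO, the membrane protein that passes on the Hedgehog signal, was at 66.8, 60.0 and 69.0 FPKM. The Hedgehog co-receptors CDON, BOC and GAS1 averaged 60.8 ± 4.51, 24.3 ± 3.37 and 5.71 ± 0.688 FPKM. NOTCH2 was at 41.6, 43.4 and 54.8 FPKM, with replicate 3 highest. HHIP, the Hedgehog-binding inhibitor, was the 1 absent member, with 0 in each library. Of 15 semaphorin, netrin and slit receptors, 8 were present (53.3%, against 63.7% of all genes) and 5 absent (33.3%, against 21.6%). The neuropilin NRP2, a co-receptor for class 3 semaphorins and VEGF, was at 215, 196 and 239 FPKM, above NRP1 at 37.7, 34.0 and 39.5 FPKM and PLXNA1 at 28.3, 26.1 and 32.2 FPKM. PLXNA4, UNC5A, UNC5C, UNC5D and ROBO2 were absent.

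Immune receptors were present in part. Of 32 cytokine and interferon receptors, 14 were present (43.8%, against 63.7% of all genes), 11 in between and 7 absent. OSMR, the oncostatin M receptor, was at 91.6, 92.3 and 97.9 FPKM, and IL1RAP, the accessory chain of the interleukin-1 receptor, at 60.8, 60.5 and 61.8 FPKM. IL17RA averaged 36.2 ± 2.76 FPKM. Interferon receptor chains were present, with IFNGR2, of the interferon-gamma receptor, at 31.4, 30.2 and 28.3 FPKM and IFNAR1, of the type I interferon receptor, at 20.1, 19.6 and 18.7 FPKM. The lymphocyte receptor chains IL2RA and IL7R were absent, as were IL18R1, IL11RA and IL22RA2. IL13RA1 narrowly missed the present level, at 1.15, 0.96 and 1.08 FPKM.

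Of 18 TNF receptor family members, 13 were present (72.2%, against 63.7% of all genes) and 3, TNFRSF13B, TNFRSF19 and EDAR, were absent. TNFRSF11B, the secreted decoy osteoprotegerin, was at 53.1, 53.3 and 53.0 FPKM, among the tightest values in these lists. The death receptors FAS and TNFRSF10B were at 43.8 ± 2.45 and 28.5 ± 5.42 FPKM, and TNFRSF21 at 39.2 ± 2.18 FPKM. TNFRSF1A, the main receptor for TNF, was at 27.7, 25.6 and 26.8 FPKM.

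Pathogen sensors were present for 11 of 19 (57.9%, against 63.7% of all genes) and absent for 6. NOD1, which senses bacterial peptidoglycan in the cytoplasm, was at 12.6, 14.4 and 14.5 FPKM, and EIF2AK2, the double-stranded RNA-activated kinase PKR, at 9.45, 9.90 and 9.51 FPKM. MB21D1, the DNA sensor cGAS, averaged 6.497 ± 0.253 FPKM and TLR21, which in chicken recognises unmethylated CpG DNA, 6.20 ± 0.340 FPKM. TRIM25, a ubiquitin ligase of RNA sensing, averaged 6.45 ± 0.490 FPKM, and IFIH1, the RNA sensor MDA5, 2.15 ± 0.361 FPKM. TLR4 and TLR7, the receptors for lipopolysaccharide and single-stranded RNA, were listed at 0 in each library, and TLR1A, TLR2A and TLR15 were absent.

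Most G protein-coupled receptors were low. Of 12 chemokine and complement receptors, 1 was present (8.33%, against 63.7% of all genes) and 8 were absent (66.7%, against 21.6%). The 1 present was ACKR3, an atypical receptor that binds CXCL12, at 42.8, 41.4 and 40.4 FPKM. CXCR4, the signalling receptor for CXCL12, was absent at 0, 0.04 and 0 FPKM, as were CCR4, CCR6, CCR7 and CCR9. Of 21 lipid mediator receptors, 4 were present (19.0%, against 63.7% of all genes) and 10 absent (47.6%, against 21.6%). LPAR1, the lysophosphatidic acid receptor, led them at 25.2, 23.9 and 25.7 FPKM, followed by LPAR2 at 12.7 ± 1.35 FPKM and the sphingosine 1-phosphate receptor S1PR2 at 8.94 ± 0.379 FPKM, whereas LPAR3, LPAR4, LPAR5, S1PR3 and PTGER2 were absent. Of 37 peptide and protease-activated receptors, 7 were present (18.9%, against 63.7% of all genes) and 17 absent (45.9%, against 21.6%). Protease-activated receptors supplied 3 of the 7, with F2RL1 at 16.6, 16.5 and 16.3 FPKM, the thrombin receptor F2R at 11.6, 10.5 and 11.1 FPKM and F2RL2 at 5.98 ± 0.395 FPKM. BDKRB2, a bradykinin receptor, averaged 9.18 ± 0.899 FPKM, and CALCRL, of the receptors for calcitonin gene-related peptide, 2.42 ± 0.144 FPKM. Of 39 receptors for amines, nucleotides and transmitters, 3 were present (7.69%, against 63.7% of all genes) and 22 absent (56.4%, against 21.6%). The serotonin receptor HTR1B was at 8.59, 7.08 and 9.23 FPKM. The ATP-gated channel P2RX4 was at 5.91 ± 0.172 FPKM and the adrenergic receptor ADRA1B at 4.003 ± 0.327 FPKM.

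Nuclear receptors are transcription factors that bind hormones and lipids. Of 40, 22 were present (55.0%, against 63.7% of all genes), 10 in between and 8 absent. The thyroid hormone receptors THRB, at 46.3, 59.7 and 56.3 FPKM, and THRA, at 26.5, 25.2 and 29.4 FPKM, were both present, with THRB above THRA in each library. NR1H3, the oxysterol receptor LXR alpha, was at 50.2, 48.5 and 52.5 FPKM, the retinoic acid receptor RARA at 54.0, 44.1 and 49.3 FPKM and the orphan receptor NR2F6 at 40.2 ± 1.27 FPKM. THRB, NR1H3 and RARA overlapped in range. RARB, RORA, HNF4A, RXRG and NR2E1 were absent.

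Uptake receptors were present about as often as all genes. Entry factors of avian viruses had a higher share present, in a small list. Of 20 lipoprotein, iron and scavenger receptors, 13 were present (65.0%, against 63.7% of all genes) and 2, LRP1B and STAB2, were absent. TFRC, the transferrin receptor, was at 77.9, 85.7 and 95.7 FPKM, and LRP1, a large endocytic receptor, at 62.1, 52.5 and 73.5 FPKM. SCARB2, MRC2 and M6PR averaged 51.1 ± 0.747, 51.0 ± 6.36 and 46.5 ± 1.21 FPKM. Of 14 genes named as entry factors for avian viruses, 11 were present (78.6%, against 63.7% of all genes). This list was chosen with earlier results of these data known, so its share is a description only. ANXA2, annexin A2, was at 1264, 1251 and 1252 FPKM, the endoplasmic reticulum chaperone HSPA5 at 780, 708 and 776 FPKM and BSG, basigin, at 415, 380 and 406 FPKM. Receptor genes of avian leukosis viruses were among those present, with TNFRSF10B, the receptor of subgroups B, D and E, and CD320, which is known as the receptor of subgroup A, at 25.2, 19.6 and 24.5 FPKM. ANPEP, aminopeptidase N, and ST6GAL1, which adds alpha-2,6-linked sialic acid, were absent.

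**Figure D4:**
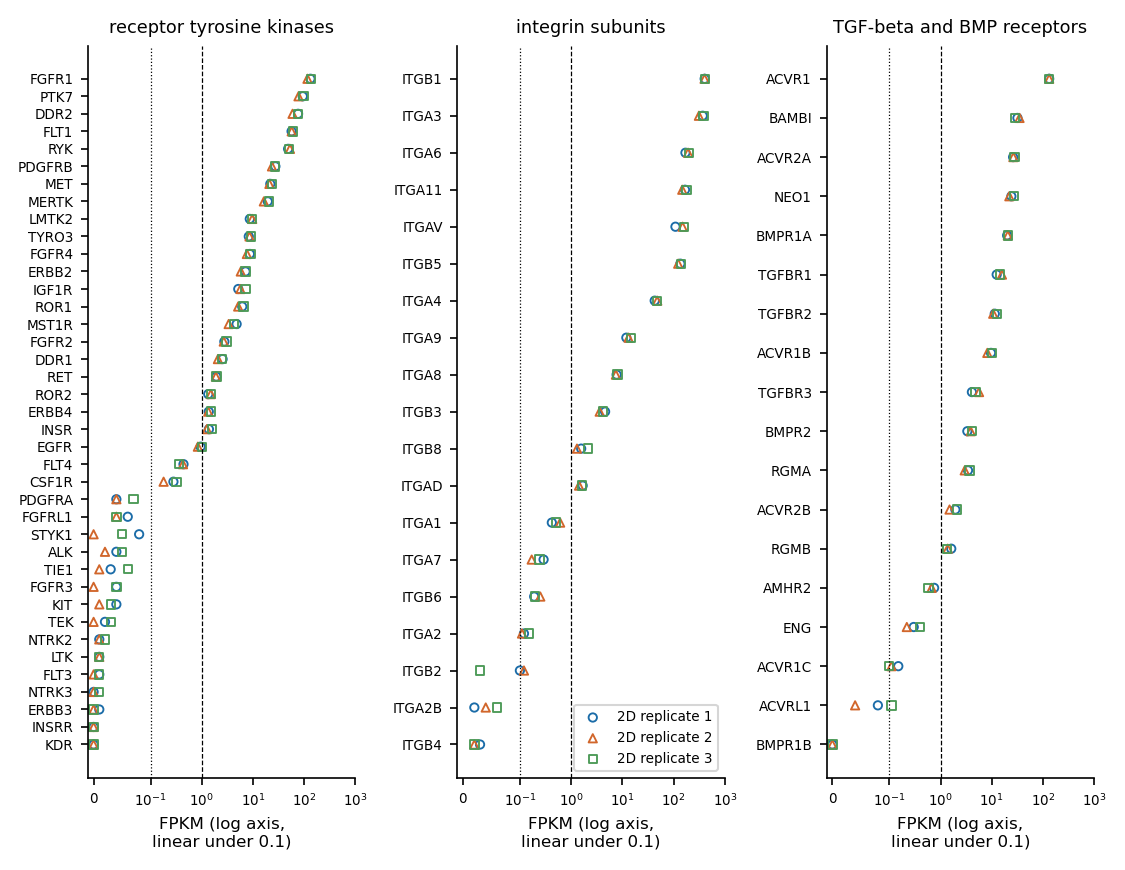
FPKM of receptor tyrosine kinases, integrin subunits and TGF-beta and BMP receptors, genes running down in falling order of their mean, on an x axis that is logarithmic above 0.1 FPKM and linear below; each symbol is 1 of the 3 libraries of 2D, and lines mark 1 FPKM (dashed) and 0.1 FPKM (dotted). ITGB1 is the highest at a mean of 407 FPKM, and 15 of the 39 kinases lie under 0.1 FPKM in each library.

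The limits of 1 and 0.1 FPKM cut through some receptors. RORB, a retinoid-related orphan receptor, was the present receptor gene nearest to 1 FPKM, at 1.02, 1.1 and 1.59 FPKM. The lowest library was between 0.5 and 1 FPKM for 11 receptor genes and between 1 and 2 FPKM for 23. At the lower limit, CCR4, CHRM5, EPHB1, LPAR5, OASL and VANGL2 reached 0.09 FPKM in their highest library and were called absent, and ADORA2B, CHRM3, P2RY2 and VLDLR reached 0.1 FPKM and were in between.

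The 4 lists of ligands, some with binding proteins and modulators, held 140 genes. Of these, 43 (30.7%, against 63.7% of all genes) were present, 32 in between and 65 (46.4%, against 21.6%) absent. The 17 receptor lists together had 46.2% present, but single receptor lists ranged from 7.69% to 90.0%. Among 44 growth factors of receptor tyrosine kinases, 18 were present (40.9%, against 63.7% of all genes) and 21 absent (47.7%, against 21.6%). PROS1, protein S, a ligand of the TAM kinases, was at 173, 180 and 182 FPKM, and PDGFD at 73.5, 75.1 and 78.4 FPKM. FGF2, fibroblast growth factor 2, was at 17.5, 24.6 and 22.0 FPKM, the neurotrophin BDNF at 17.1, 21.6 and 23.3 FPKM and PDGFA at 21.3, 19.5 and 20.7 FPKM. EGF and HGF were listed at 0 in each library, and EREG, NRG2, NRG3 and PDGFC were absent.

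Of 30 TGF-beta and BMP ligands and their binding proteins, 9 were present (30.0%, against 63.7% of all genes) and 13 absent (43.3%, against 21.6%). FSTL1, a follistatin-like glycoprotein, was at 259, 218 and 259 FPKM, and INHBA, the subunit of activin A, at 137, 133 and 136 FPKM. TGFB3 was at 73.9, 75.4 and 75.3 FPKM and TGFB1 at 55.5, 44.5 and 45.1 FPKM, whereas TGFB2 was absent at 0, 0 and 0.03 FPKM. FSTL3, an activin-binding inhibitor, averaged 46.8 ± 4.74 FPKM. Wnt, Hedgehog and Notch ligands and modulators were low. Of 31, 6 were present (19.4%, against 63.7% of all genes) and 20 absent (64.5%, against 21.6%). SFRP4, a secreted frizzled-related protein, was the highest at 6.81, 6.78 and 6.55 FPKM, followed by WNT9A at 4.33 ± 0.505 FPKM, the Notch ligand JAG1 at 3.82 ± 0.343 FPKM and WNT5B at 2.97 ± 0.869 FPKM. WNT3A, WNT4, WNT8A, WNT8B and WNT9B were absent.

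Of 36 chemokines, cytokines and interferons, 11 were present (30.6%, against 63.7% of all genes), 14 in between and 11 absent (30.6%, against 21.6%). MIF, macrophage migration inhibitory factor, was at 1839, 1719 and 1746 FPKM. The chemokine CCL4 was at 1163, 913 and 1047 FPKM, a level shared by few genes, and its place in a family of similar genes leaves the assignment of its reads uncertain. CXCL12 was at 119, 123 and 127 FPKM, LIF, leukemia inhibitory factor, at 36.6, 26.8 and 31.4 FPKM and TNFSF10, the death ligand TRAIL, at 20.7, 19.4 and 23.3 FPKM. IL1B, IL10, IL8L1, CCL1 and CCL17 were absent. In replicate 3 alone, CCL5 read 2.34 FPKM, CSF2 0.82 FPKM and CCL20 0.11 FPKM, with 0 for each of them in replicates 1 and 2.

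Ligands were set beside their known receptors in 41 pairs in which both genes were in the table. In 27 pairs both were present, in 10 the ligand was present and the receptor absent, and in 2 the ligand was present and the receptor in between. Many of these ligands were named for being present, and several were picked after their values were seen. The number of pairs with a present ligand follows from that choice and is a description only. Over the 4 ligand lists, 30.7% of the genes were present. Both sides were present for FGF2 and FGFR1, for PDGFD and PDGFRB, for INHBA and ACVR2A, for LIF with LIFR at 4.42 ± 1.02 FPKM and IL6ST at 14.8 ± 0.191 FPKM, and for TGFB1 and TGFB3 with TGFBR1 at 14.3 ± 1.67 FPKM and TGFBR2 at 11.6 ± 0.950 FPKM. PROS1 stood beside its receptor MERTK at 18.7 ± 2.12 FPKM and beside the gene listed as TYRO3 at 8.63 ± 0.389 FPKM, which RefSeq calls AXL, so it is uncertain which TAM kinase this pair holds. Some ligands had at least 1 receptor present and another absent. These were CXCL12, with ACKR3 but not CXCR4, VEGFA, at 6.09 ± 1.03 FPKM, with FLT1 but not KDR, VEGFC with NRP2 but not KDR, FGF2 with FGFR1 but not FGFR3, PDGFB with PDGFRB but not PDGFRA, NRG1 with ERBB4 but not ERBB3, and BMP2 with BMPR1A but not BMPR1B. Of these, FGF2 also had FGFR2 (2.83 FPKM) and FGFR4 (8.39 FPKM) present. NRP1 and NRP2 were present for VEGFA, and BMPR2 (3.78 FPKM) for BMP2. The receptor examined for PDGFA, PDGFRA, was absent, and so was that for BDNF, NTRK2, at 0.0133 ± 0.00577 FPKM. For CSF1, at 12.8 ± 2.10 FPKM, the receptor CSF1R was in between at 0.260 ± 0.0721 FPKM. A further receptor of VEGFC, FLT4, was also in between, at 0.41 ± 0.0436 FPKM. The reverse held for MET, which was present while its ligand HGF was listed at 0, and in 1 pair, KITLG and KIT, both were absent.

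Antigen presentation genes were present for 10 of 16 (62.5%, against 63.7% of all genes), in between for 4 and absent for 2. B2M, the light chain of class I molecules, was at 136, 122 and 129 FPKM. The class I heavy chain BF2 was at 31.2, 25.6 and 30.4 FPKM and its neighbour BF1 at 1.91, 1.55 and 2.29 FPKM, and since both are similar in sequence the split between them is uncertain. TAPBP, tapasin, averaged 27.8 ± 2.82 FPKM and the peptide transporter TAP1 4.17 ± 0.160 FPKM. DMB2, of the class II loading pathway, averaged 7.17 ± 1.18 FPKM, while the class II beta chains BLB1 and BLB2 averaged 0.0833 and 0.307 FPKM. CIITA, the class II transactivator, was absent at 0.09, 0.02 and 0.08 FPKM. As in several other lists, replicate 2 was the lowest library for 9 of the 10 present genes, against 38.4% of all present genes.

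Growth control genes were nearly all present, 32 of 36 (88.9%, against 63.7% of all genes). BCL2L1, the anti-apoptotic BCL-XL, was at 199, 204 and 208 FPKM and CDK2, the kinase of DNA replication onset, at 210, 199 and 198 FPKM. CDKN2A, the chicken locus known for the tumour suppressor ARF, was at 156, 145 and 143 FPKM. SOD2, mitochondrial superoxide dismutase, averaged 108 ± 3.03 FPKM and DKC1, dyskerin, 77.3 ± 1.97 FPKM. CCND1, cyclin D1, averaged 64.5 ± 5.17 FPKM, E2F1 56.3 ± 3.99 FPKM, MYC 46.8 ± 4.63 FPKM, RB1 30.0 ± 2.27 FPKM and MDM2, the ubiquitin ligase of p53, 20.4 ± 0.367 FPKM. The inhibitors CDKN1A, a p53 target, and CDKN2B were in between, at 0.20, 0.44 and 0.39 FPKM and at 0.99, 0.78 and 1.01 FPKM. A separate entry named CDKN1AL was present at a mean of 17.7 FPKM, and its relation to CDKN1A was not examined. TERT, the catalytic subunit of telomerase, was absent at 0.05, 0.01 and 0.03 FPKM, whereas DKC1, which binds telomerase RNA, was present. GSTA3 was listed at 0 in each library.

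The 3 libraries lay close together. Over the 9735 present genes the SD of log2(FPKM + 1) between libraries had a root mean square of 0.11 and a median of 0.08, and the median coefficient of variation was 6.12%. Only 106 present genes (1.09%) had an SD over 0.3. Across genes, Pearson's r was 0.996 between replicates 1 and 2, 0.997 between 1 and 3 and 0.997 between 2 and 3, where genes are not independent replicates. The root mean square difference was 0.18, 0.14 and 0.15 for these pairs, so no pair was identical. Between any pair of libraries, 35 to 37 present genes had the same FPKM to 2 decimals.

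The spread narrowed with the level. The median coefficient of variation was 27.7% for the 1655 genes with means between 0.1 and 1 FPKM, 8.62% between 1 and 10, 5.57% between 10 and 100, 4.61% between 100 and 1000 and 3.92% for the 117 genes of 1000 FPKM or more. Genes near the present level are therefore less precise than the abundant genes above.

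The genes that varied most, among those averaging 10 FPKM or more, were LENG8 at 18.5, 9.27 and 15.8 FPKM, LOC107050785 at 14.5, 7.96 and 14.3 FPKM, the histone HIST1H4B at 22.1, 11.6 and 17.9 FPKM, the lysosomal transporter ATP13A2 at 15.1, 8.14 and 12.2 FPKM, COL7A1, the collagen of anchoring fibrils, at 18.6, 10.2 and 15.4 FPKM, and the histone HIST1H2B7 at 13.8, 21.3 and 12.7 FPKM. In 5 of these 6 genes replicate 2 was lowest, and in HIST1H2B7 it was highest. Among the 100 most variable genes of this level, replicate 2 was the library farthest from the others in 56 and was the lowest in 54 of those, replicate 1 was farthest in 31 and replicate 3 in 13. Over all 6316 genes of this level, replicate 2 was farthest in 2692, replicate 1 in 2122 and replicate 3 in 1502. Histone messages mostly lack a poly-A tail, so their values after oligo-dT selection are uncertain. The steadiest genes were CCDC47 at 42.7 FPKM in each library, RNH1, the ribonuclease inhibitor, at 294 ± 0.197 FPKM, YWHAG, a 14-3-3 protein, at 125 ± 0.104 FPKM, LONP1, VPS25 and ES1ML1.

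**Figure D5:**
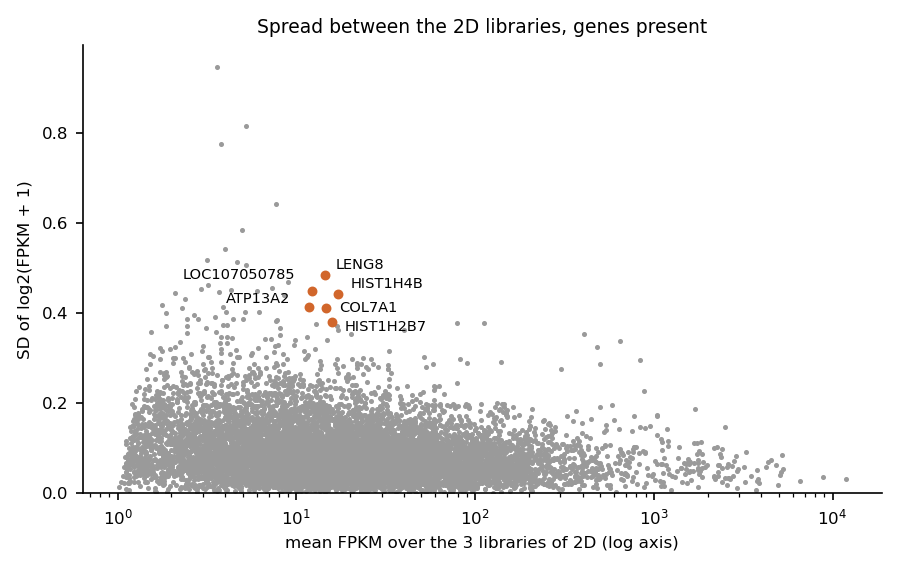
SD of log2(FPKM + 1) over the 3 libraries of 2D against mean FPKM on a logarithmic x axis, 1 grey point for each of the 9735 present genes. The 6 most variable genes averaging 10 FPKM or more are named, led by LENG8 at an SD of 0.49, and only 106 genes lie over 0.3.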

How the data were processed

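RNA-seq of DF-1 was analysed in the 3 libraries titled 2D, with the replicate number taken from the title. The labels' protocols give trizol extraction and a poly-T bead purification of mRNA, which leaves messages without a poly-A tail under-represented. Values are FPKM as the authors deposited them, rounded to 2 decimals. The submitters' processing notes list HISAT2 2.0.5, R 3.4.2, DESeq2 and the build GRCg6a, with no role stated. Which annotation was counted, and with which program FPKM was computed, is not given in the sources used here. Such values depend on the length assigned to a gene and on every other gene of its library. Low values showed no steps of whole reads, so depth could not be recovered and no interval for counting error was made. Of the deposited table, 15294 genes were used. A line that names no gene was left out, as were 82 columns with no name.

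Genes were looked up by exact symbol in 38 lists with 1066 entries, of which 850 were found; the others were not analysed here, and a few genes are not reported here. The RefSeq table at hand is of another assembly, so no coordinates or sequences are printed. Matched by NCBI number, 14265 genes are in it, 903 of them under a different symbol, such as RPL39L for RPL39, LGALS1A for LGALS1, AXL for TYRO3, LECT1 for CNMD, ATVR1 for ACVR1, CGAS for MB21D1, CXCR7 for ACKR3, GATD3AL1 for ES1ML1, ATP5F1AW for ATP5A1W and SPIN1L for SPIN1W.

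The libraries, lists and limits were chosen with earlier results of these data known. Named genes were the 20 with the highest mean, up to 5 present members of each list with the highest mean and up to 5 absent members in list order, the 6 of at least 10 FPKM with the largest and the 6 with the smallest SD of log2(FPKM + 1), receptors at the limits, HOX genes, and receptors of named ligands. Others were chosen after their values were seen: the genes that follow in abundance once ribosomal proteins are left out, COL1A2, COL3A1, VIM, S100A4, POSTN, TWIST1, SNAI2, CNN1, MYH11, ACTG2, PECAM1, CLDN5, WT1, PTPRC, MYOCD, MET, EGFR, IFIH1, CD320, HGF, VEGFA, VEGFC, PDGFB, NRG1, ERBB4, BMP2, CSF1, CSF1R, CCL5, CSF2, CCL20, BF1, BLB1, BLB2, E2F1, MYC, CCND1, MDM2, RB1, CDKN1A and CDKN2B. CDKN1AL, ACTC2L and FLT4 were also named after their values were seen. Means, SDs (n = 3) and counts were computed with Python 3.11.15, numpy 2.4.6 and pandas 2.3.3, and figures were drawn with matplotlib 3.10.9. The steps were tested on simulated data. Alternatives were other limits, other numbers of libraries, TPM scaling, median ratio scaling, the pseudocount, the filter, and each library left out.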

Additional observations from a re-analysis of the deposited data

How the results depend on the processing

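Genes present numbered 9735 and stayed between 7768 and 10205 under all alternatives tried (limits of 0.5, 2 and 5 FPKM, 2 of 3 libraries, the mean, TPM and each library left out). Genes absent numbered 3307 and stayed between 2573 and 4738, except that 1458 were absent when only genes listed at 0 in all 3 libraries counted, a narrower definition. The 20 most abundant genes held 14.3% of the summed FPKM, and between 14.27% and 14.33% with each library left out. With ribosomal protein genes taken out of both the ranking and the sum, the 20 highest of the other genes held 11.8%. The spread between libraries, a root mean square SD of 0.113 in log2(FPKM + 1), was 0.131 with a pseudocount of 0.1 and 0.0830 with a pseudocount of 5, as the pseudocount shrinks low genes. With a library left out it was between 0.101 (without replicate 2) and 0.130 (without replicate 3), and it was between 0.102 and 0.119 for other filters and scalings. Counts present moved by over 1.5 times in 2 of 38 lists at 0.5 FPKM and in 2 at 2 FPKM. Counts absent did so in 14 lists under 0.5 FPKM and in 30 when only a listed 0 counted, so the absent counts of single lists rest on the limit chosen. No paired analysis was possible because only 1 group was described and no test was made. Depth is unknown, so values under 1 FPKM carry the least precision.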

Other observations

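Genes with symbols that place them on the W chromosome, the female-specific sex chromosome of birds, were present in all 3 libraries of 2D, and they were picked after their values were seen. HINTW, a W-linked member of the HINT family, was at 2664, 2615 and 2216 FPKM, among the most abundant genes once ribosomal proteins are left aside. ATP5A1W, the W copy of an ATP synthase subunit, was at 197, 237 and 208 FPKM. SMAD2W was at 22.2, 25.0 and 22.1 FPKM and SPIN1W at 10.4, 10.5 and 8.98 FPKM. The W copies of ATP5A1, SMAD2 and SPIN1 have close relatives on the Z chromosome, so the split of reads between them is uncertain.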
